A study of Mus musculus with 9 samples.

Results

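Cd47, Thbs1, Qpctl, Ptpn6, Ptpn11, Skap2, Ptk2b and Grb2 encode the ligand of the SIRPA receptor, a second ligand of CD47, the enzyme that prepares CD47 for binding, and the phosphatases, adaptors and kinase that meet SIRPA inside the cell. These 8 genes were chosen by name for their place in the pathway, with earlier results of these data known. These are 8 of the 51717 mouse genes to which the transcripts of the tables were summed. They were followed in 3 lines of B16F10, a pigmented mouse melanoma line. In the OE line Sirpa was overexpressed, in the KD line Sirpa was knocked down, and the NTC line carried a non-target control. Each line had 3 libraries, which the labels call biological repeats. All the cells were grown in serum-containing medium, and mRNA of whole cultures was sequenced. How Sirpa was knocked down or overexpressed, and whether a line was 1 clone or a pool, is not given in the sources used here. Since a condition is represented by a single line, the p-values reflect how far repeats of that line vary and say nothing of lines made independently.

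SIRPA is an inhibitory receptor best known on macrophages. When CD47 on another cell binds it, tyrosines in its cytoplasmic tail are phosphorylated by Src family kinases, the phosphatases SHP-1 (Ptpn6) and SHP-2 (Ptpn11) dock there, and phagocytosis is restrained, which is why CD47 is called a "don't eat me" signal of tumour cells. The same tail can recruit adaptors such as SKAP2 and GRB2 and the kinase PYK2 (Ptk2b). In melanoma cells CD47 is therefore usually studied as the ligand that the tumour presents to macrophages, while the receptor side of the pathway is best described in myeloid cells.

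Several of the 8 genes were present as more than 1 transcript form, and coding bases that tell the main forms apart are shown. All are read 5′ to 3′ from the GENCODE M21 transcripts of GRCm38. The authors' tables were made on mm39, so chromosome and strand are given without coordinates. Ptpn6 (chromosome 6, minus strand) has alternative first coding exons, and capitals mark the bases that come before the shared coding sequence.
Ptpn6-202: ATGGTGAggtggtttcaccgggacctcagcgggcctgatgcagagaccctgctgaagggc
Ptpn6-201: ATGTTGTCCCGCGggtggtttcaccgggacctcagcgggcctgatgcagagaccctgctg

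The Ptpn6-202 start lies downstream of the Ptpn6-201 start, and the coding sequences are 1788 and 1794 bases long. In human cells, the downstream promoter of the SHP-1 gene is known from blood cells and the upstream one from epithelial cells. For Cd47 (chromosome 16, plus strand) the forms differ, among other places, where the coding sequence ends, in the cytoplasmic tail, and capitals mark the coding bases after the last shared base.
Cd47-201: ccaacctcctaggaaTAGGTGA
Cd47-203: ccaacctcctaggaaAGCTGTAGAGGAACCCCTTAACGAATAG
Cd47-205: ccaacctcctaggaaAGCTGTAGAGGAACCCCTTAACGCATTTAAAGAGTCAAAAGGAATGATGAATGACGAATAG
Cd47-207: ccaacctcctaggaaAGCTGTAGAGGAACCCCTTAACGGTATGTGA

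Cd47-201 has the shortest tail, with 7 such bases. Cd47-203 has an extra exon of 25 bases, Cd47-205 extra exons of 25 and 33 bases, and Cd47-207 an extra exon of 29 bases. The whole coding sequences are 975 bases long in Cd47-201, 837 in Cd47-203, 966 in Cd47-205 and 777 in Cd47-207, so these transcripts also differ before the tail, in bases not shown. The main forms of Ptpn11 and Skap2 differ by a block inside the coding sequence, in capitals below, which is 12 bases in Ptpn11 (chromosome 5, minus strand) and 21 bases in Skap2 (chromosome 6, minus strand). Each block is a multiple of 3 bases, so the reading frame goes on in both forms.
Ptpn11-201: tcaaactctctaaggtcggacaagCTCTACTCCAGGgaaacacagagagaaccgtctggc
Ptpn11-202: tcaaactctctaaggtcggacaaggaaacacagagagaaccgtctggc
Skap2-205: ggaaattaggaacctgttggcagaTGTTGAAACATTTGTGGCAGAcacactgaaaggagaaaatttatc
Skap2-201: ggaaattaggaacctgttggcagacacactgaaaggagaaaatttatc

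The libraries held 16.4 to 22.38 estimated counts in units of 1000000. Sirpa, the targeted gene, matched the labels in every library. In counts per 1000000 with TMM-normalised library sizes (CPM) it stood at 895, 898 and 914 in OE, at 118, 112 and 115 in KD, and at 292, 289 and 303 in NTC. Relative to NTC it was 3.06-fold higher in OE (log2 fold change 1.61 ± 0.04 SE, adjusted p = 4.7e-14) and 2.56-fold lower in KD (log2 fold change -1.36 ± 0.04 SE, adjusted p = 4.57e-13), both from a quasi-likelihood fit in edgeR, with p adjusted by Benjamini-Hochberg over the 13064 genes tested. All 8 melanocyte markers examined were expressed, with a summed level in transcripts per 1000000 (TPM) of 16400 to 16500 in OE, 14800 to 15800 in KD and 15000 to 15300 in NTC. Of 10 macrophage and myeloid markers, 2 passed the filter on low counts and Ptprc, Tyrobp, Adgre1 and Fcgr1 were at 0 in all 9 libraries, while the summed TPM of the list was 3.58 to 4.89 in OE, 5.43 to 8.63 in KD and 2.50 to 4.57 in NTC. None of 8 markers of T, B and NK cells passed, and their summed TPM did not exceed 0.124 in any library. Of 5 endothelial markers 1 passed, Eng. The summed TPM of that list was 134 to 145 in OE, 162 to 190 in KD and 116 to 128 in NTC, nearly all of it Eng. Cdh5 and Kdr were at 0 in all 9 libraries, and Pecam1 and Tek each had at most 0.825 TPM. Of 4 platelet and 4 epithelial markers 1 each passed, with a summed TPM of each list of at most 2.58. Mitochondrial transcripts took 2.37% to 2.51% of the counts in OE, 2.36% to 2.57% in KD and 2.14% to 2.17% in NTC.

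All 8 genes passed the filter on low counts in the fit over all 9 libraries. In OE against NTC, 4 of the 8 (50%) were called at an adjusted p under 0.05, with Thbs1, Ptpn6 and Ptk2b higher and Skap2 lower, where 24.3% of all tested genes were called. In KD against NTC, 4 of the 8 were called, with Thbs1, Ptpn6 and Ptk2b again higher and Skap2 lower, where 35.4% of all tested genes were called. In OE against KD, 1 of the 8 (12.5%) was called, Thbs1, which was higher, where 22.1% of all tested genes were called. The median log2 fold change of the 8 was 0.08 in OE against NTC, 0.20 in KD against NTC and 0.02 in OE against KD, and that of all tested genes was between -0.01 and 0.01 in each. Sirpa itself stood above NTC in OE and below it in KD. Comparisons of OE and of KD with NTC share the NTC libraries, so a shared sign is not 2 separate observations.

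**Figure D1:**
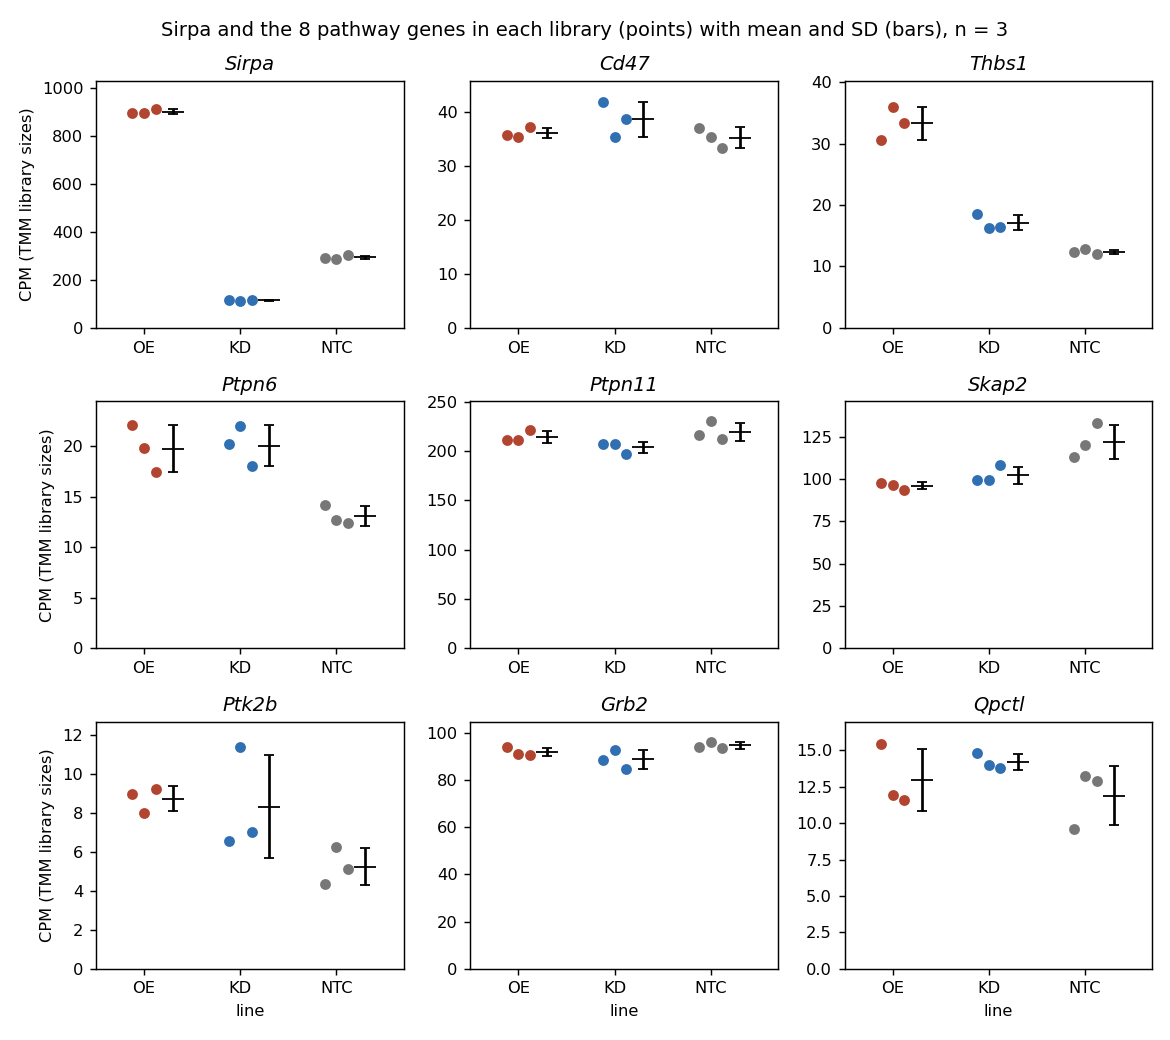
CPM with TMM library sizes (y axes, linear from 0) of Sirpa and of the 8 genes in the OE, KD and NTC lines (x axes), with 1 point per library and bars for the mean and SD of 3 libraries. Thbs1 stands at 30.6 to 36.0 CPM in OE, above 16.3 to 18.5 in KD and 12.1 to 12.8 in NTC, while Cd47 lies between 33.3 and 41.9 CPM in all 9 libraries.

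On the ligand side, Thbs1 rose in both perturbed lines and Cd47 did not pass the test in any comparison. Thbs1 (chromosome 2, plus strand) encodes thrombospondin 1, a secreted matrix glycoprotein that binds CD47 and other receptors. It had 30.6, 36.0 and 33.3 CPM in OE, 18.5, 16.3 and 16.5 CPM in KD, and 12.3, 12.8 and 12.1 CPM in NTC. The groups did not overlap, with every OE library above every KD library and every KD library above every NTC library.

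Thbs1 was 2.68-fold higher in OE than in NTC (33.3 ± 2.7 against 12.4 ± 0.35 CPM, SD, n = 3 each, with a log2 fold change of 1.42 ± 0.10 SE, adjusted p = 5.55e-08 by edgeR). In KD it was 1.38-fold higher than in NTC (17.1 ± 1.2 CPM, SD, n = 3, with a log2 fold change of 0.46 ± 0.10 SE, adjusted p = 0.0022 by edgeR). The difference between OE and KD was itself called, at 1.94-fold (log2 fold change 0.96 ± 0.10 SE, adjusted p = 3.19e-06 by edgeR). These 3 calls held under all 19 alternatives of the analysis. A single transcript, with a coding sequence of 3516 bases, held 100% of the Thbs1 counts in every line. Fibroblasts also make thrombospondin 1, and the summed TPM of 5 fibroblast markers was 37.8 to 44.6 in OE, 16.9 to 21.3 in KD and 33.3 to 37.4 in NTC. Most of this sum was Col1a1 and Pdpn. Col1a1 had 15.3 to 17.3 TPM in OE, 1.07 to 1.49 in KD and 12.8 to 13.7 in NTC. Pdpn had 21.6 to 27.2, 14.3 to 16.9 and 18.3 to 23 TPM in that order. Pdgfra had 0.614 to 3.34 TPM in a library, and Dcn and Lum each had at most 0.344. The list was thus lowest in KD, where Thbs1 was above NTC, and its part in the result was not tested. In such bulk cultures, fewer cells of a type and less RNA per cell cannot be told apart.

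Cd47 encodes the membrane protein that SIRPA binds. It had 35.8, 35.4 and 37.2 CPM in OE, 41.9, 35.4 and 38.7 CPM in KD, and 37.1, 35.4 and 33.3 CPM in NTC. In CPM the 3 lines overlapped. In TPM the KD libraries, at 29.9 to 31.5, lay above those of OE (25.2 to 28.9) and NTC (25.6 to 27.7). Cd47 was called in none of the 3 comparisons, and under none of the 19 alternatives. The log2 fold change was 0.04 ± 0.08 SE in OE against NTC (adjusted p = 0.798), 0.14 ± 0.08 SE in KD against NTC (adjusted p = 0.203) and -0.10 ± 0.08 SE in OE against KD (adjusted p = 0.418), all by edgeR.

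Qpctl (chromosome 7) encodes a Golgi glutaminyl cyclase that converts the first residue of mature CD47 to pyroglutamate, which SIRPA binding needs. Its level was 15.4, 11.9 and 11.6 CPM in OE, 14.8, 14.0 and 13.8 CPM in KD, and 9.58, 13.2 and 12.9 CPM in NTC. The 3 KD libraries lay above the 3 NTC libraries, but the gene was not called in KD against NTC (log2 fold change 0.25 ± 0.15 SE, adjusted p = 0.211), in OE against NTC (0.13 ± 0.15 SE on the log2 scale, adjusted p = 0.608) or in OE against KD (-0.13 ± 0.15 SE on the log2 scale, adjusted p = 0.603). The exons of Qpctl share 471 bases, 10.9% of its exon bases, with Fbxo46 on the opposite strand. Fbxo46 had 189.6 to 373.6 counts per library, and since the library kit was non-directional, reads from the shared bases could belong to either gene.

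Among the phosphatases, Ptpn6 rose in both perturbed lines and Ptpn11 was not called in any comparison. Ptpn6 encodes SHP-1, a phosphatase best known in blood cells. It had 22.1, 19.8 and 17.4 CPM in OE, 20.2, 22.0 and 18.0 CPM in KD, and 14.2, 12.7 and 12.4 CPM in NTC. OE and KD overlapped each other and lay wholly above NTC.

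Ptpn6 was 1.51-fold higher in OE than in NTC (19.8 ± 2.3 against 13.1 ± 0.97 CPM, SD, n = 3 each, with a log2 fold change of 0.60 ± 0.12 SE, adjusted p = 0.00178 by edgeR). It was 1.53-fold higher in KD than in NTC (20.1 ± 2.0 CPM, SD, n = 3, with a log2 fold change of 0.62 ± 0.12 SE, adjusted p = 0.000825 by edgeR). Both calls held under all 19 alternatives. Between OE and KD the log2 fold change was -0.02 ± 0.12 SE (adjusted p = 0.939 by edgeR). Of the blood cell markers, Ptprc, which nearly all white blood cells express, was at 0 in all 9 libraries. The summed TPM of the macrophage and myeloid list was highest in KD, as given above, and most of it was Cd68 and Lyz2. Cd68 had 1.33 to 2.25 TPM in OE, 3.83 to 5.6 in KD and 2.1 to 3.5 in NTC. Lyz2 had 1.27 to 3.51, 0.733 to 3.03 and 0.08 to 1.37 TPM in that order. The part of these markers in the Ptpn6 result was not tested. The exons of Ptpn6 overlap those of the antisense gene Gm20531, which had at most 3 counts in a library.

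Ptpn11 encodes SHP-2, a widely expressed phosphatase that acts in growth factor signalling as well as at SIRPA. It stood at 211, 211 and 221 CPM in OE, 207, 207 and 197 CPM in KD, and 216, 230 and 212 CPM in NTC. In CPM the KD libraries lay below both other lines without overlap, yet the difference from NTC missed the threshold (log2 fold change -0.11 ± 0.04 SE, unadjusted p = 0.0281, adjusted p = 0.0724 by edgeR). In TPM, KD at 54.4 to 56.2 overlapped both OE (55.3 to 59.7) and NTC (54.2 to 70.9). The log2 fold change was -0.03 ± 0.04 SE in OE against NTC (adjusted p = 0.642) and 0.07 ± 0.04 SE in OE against KD (adjusted p = 0.274), both by edgeR.

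**Figure D2:**
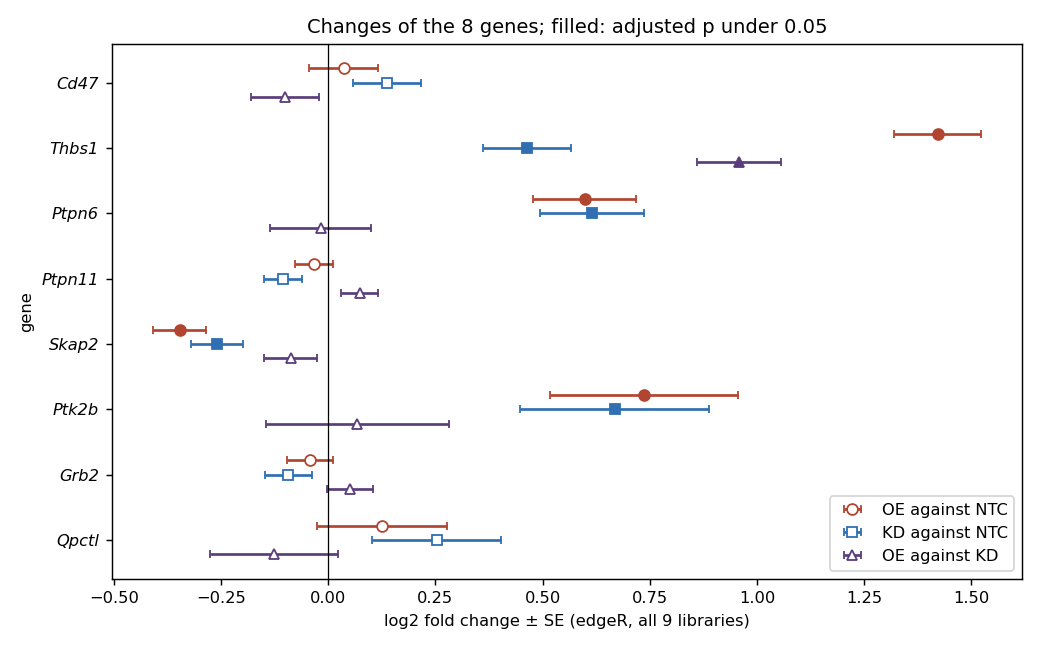
Log2 fold changes (x axis) of the 8 genes (y axis) in OE against NTC, KD against NTC and OE against KD, with bars for the SE from the edgeR fit and filled symbols for an adjusted p under 0.05. Thbs1, Ptpn6 and Ptk2b lie to the right of 0 and Skap2 to the left in both perturbed lines, and the filled symbol of OE against KD is that of Thbs1 at 0.96.

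Of the adaptors and the kinase, Skap2 fell and Ptk2b rose in both perturbed lines, while Grb2 was not called. Skap2 encodes an adaptor that binds SIRPA in macrophages and links it to integrins and actin. It had 97.7, 96.5 and 93.7 CPM in OE, 99.1, 99.2 and 108 CPM in KD, and 113, 120 and 133 CPM in NTC. In CPM, OE lay below KD and KD below NTC, with no overlap. In TPM, OE (74.5 to 78.5) again lay below the other lines, but KD (79.5 to 94.8) overlapped NTC (83.3 to 112).

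Skap2 was 1.27-fold lower in OE than in NTC (96.0 ± 2.0 against 122 ± 9.9 CPM, SD, n = 3 each, with a log2 fold change of -0.35 ± 0.06 SE, adjusted p = 0.0006 by edgeR). It was 1.20-fold lower in KD than in NTC (102 ± 5.0 CPM, SD, n = 3, with a log2 fold change of -0.26 ± 0.06 SE, adjusted p = 0.00344 by edgeR). Between OE and KD the log2 fold change was -0.09 ± 0.06 SE (adjusted p = 0.354 by edgeR). Both calls were lost on log2(TPM + 1) tested with limma, at -0.31 in OE (adjusted p = 0.111) and -0.16 in KD (adjusted p = 0.327). With an offset for the average transcript length of a gene in each library, called a length offset below, the edgeR call was lost in KD (-0.24, adjusted p = 0.129) and kept in OE.

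Ptk2b encodes PYK2, a kinase of the focal adhesion kinase family that is found with SIRPA and SKAP2 in macrophages. Per length it had the lowest mean TPM of the 8 in each line, and it took 71 to 192.0 estimated counts per library. Ptk2b had 8.97, 8.02 and 9.23 CPM in OE, 6.58, 11.4 and 7.05 CPM in KD, and 4.35, 6.24 and 5.13 CPM in NTC. Both perturbed lines lay above NTC without overlap, although the lowest KD library (6.58 CPM) was close to the highest NTC library (6.24 CPM).

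Ptk2b was 1.67-fold higher in OE than in NTC (8.74 ± 0.64 against 5.24 ± 0.95 CPM, SD, n = 3 each, with a log2 fold change of 0.74 ± 0.22 SE, adjusted p = 0.022 by edgeR). It was 1.59-fold higher in KD than in NTC (8.35 ± 2.7 CPM, SD, n = 3, with a log2 fold change of 0.67 ± 0.22 SE, adjusted p = 0.0262 by edgeR), and between OE and KD the log2 fold change was 0.07 ± 0.21 SE (adjusted p = 0.859 by edgeR). Leaving out KD library 2 lowered the KD value of Ptk2b to 0.38 (adjusted p = 0.175), and its call in KD was also lost without NTC library 1 (adjusted p = 0.102) or NTC library 3 (adjusted p = 0.0702) and with limma-voom (0.61, adjusted p = 0.0515). The OE call of Ptk2b was lost without NTC library 1, NTC library 3, OE library 1 or OE library 3 (adjusted p = 0.0918, 0.0671, 0.0596 and 0.0664 in edgeR), and both were lost with a length offset and on log2(TPM + 1).

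Grb2 (chromosome 11) encodes an adaptor that couples phosphorylated receptors to the exchange factor SOS. It had 93.8, 91.1 and 90.3 CPM in OE, 88.6, 92.8 and 84.5 CPM in KD, and 93.8, 96.2 and 93.6 CPM in NTC. In CPM, KD lay below NTC without overlap, and OE overlapped both. The log2 fold change was -0.04 ± 0.05 SE in OE against NTC (adjusted p = 0.634), -0.09 ± 0.06 SE in KD against NTC (adjusted p = 0.206) and 0.05 ± 0.05 SE in OE against KD (adjusted p = 0.568), all by edgeR. The sign of KD against NTC turned with a length offset (0.18, adjusted p = 0.435 in edgeR) and on log2(TPM + 1) (0.26, adjusted p = 0.273 in limma), and that of OE against KD turned too, to -0.26 and -0.28. Of the 31-base words of the Grb2 transcripts, 12.08% also occur in other genes, most in a processed pseudogene that had 0 counts in every library.

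Mitochondrial transcripts took a larger share of the counts in both OE and KD than in NTC, as given above. Thbs1, Ptpn6 and Ptk2b were also higher in both lines than in NTC, whereas Skap2 was lower. The part of the mitochondrial share in these results was not tested.

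The transcript forms shown above were compared as shares of each gene's estimated counts, without a test. With 3 libraries a line, an exact two-sided permutation test cannot give a p below 0.1. For Ptpn6, the form with the downstream start held most counts in every line, at 93.8%, 88.9% and 92.1% in OE, 92.7%, 98.5% and 100% in KD, and 98.4%, 96.9% and 99.1% in NTC. The upstream form held 8.06% ± 2.1 in OE, 2.95% ± 3.9 in KD and 1.35% ± 1.6 in NTC (SD, n = 3 each), and transcripts with no annotated start codon held 0% to 1.63% in a library. Its estimated counts summed over 3 libraries were 87 in OE, 38 in KD and 9 in NTC. The upstream share was higher in every OE library than in every NTC library, whereas KD overlapped both, with 1 KD library at 7.31% and another at 0. As shares of TPM the upstream form was likewise at 5.98% to 9.18% in OE and 0% to 3.0% in NTC, but the downstream form overlapped, at 82.0% to 94.0% in OE and 82.4% to 99.1% in NTC.

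For Cd47, the short-tailed form was the main one by counts, with 73.4% ± 5.5 of the counts in OE, 72.9% ± 0.56 in KD and 72.1% ± 3.1 in NTC (SD, n = 3 each). As shares of TPM, which are per length, it held 44.7% to 59.8% in OE, 50.2% to 55.7% in KD and 47.7% to 58.1% in NTC. By TPM it was the largest form in every library except OE library 3. There it held 44.7%, against 45.0% for the form with extra exons of 25 and 33 bases. The short-tailed form pooled Cd47-201 with the transcripts Cd47-202 and Cd47-209. Cd47-201 alone held a mean of 61.0% of the Cd47 counts in OE, 57.2% in KD and 56.8% in NTC. The form with extra exons of 25 and 33 bases held 11.5% ± 13 in OE, 11.5% ± 8.1 in KD and 16.8% ± 5.9 in NTC. The form with the exon of 29 bases held 11.7% ± 8.1 in OE, 8.18% ± 7.5 in KD and 4.09% ± 7.1 in NTC. Each of these forms was at 0 in at least 1 of the 9 libraries, and the repeats of a line differed by more than the line means. The form with the exon of 25 bases alone held 2.81% ± 1.2 in OE, 7.43% ± 3.1 in KD and 5.67% ± 0.43 in NTC, with the OE libraries (1.72% to 4.04%) below the NTC libraries (5.32% to 6.14%) and touching the lowest KD library (3.85%). Its estimated counts summed over 3 libraries were 58 in OE, 149 in KD and 106 in NTC.

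For Ptpn11, the form without the 12-base block held 61.9% ± 2.9 in OE, 57.1% ± 9.4 in KD and 65.5% ± 9.7 in NTC. For Skap2, the form without the 21-base block held 55.5% ± 4.3 in OE, 56.7% ± 2.5 in KD and 51.8% ± 3.0 in NTC, and the longer form also differs in its non-coding 3′ end. In both genes the 2 forms were thus present side by side in every line, and the lines overlapped in these shares of counts. As shares of TPM the Skap2 form without the block did not overlap with NTC, at 72.1% to 78.1% in OE and 73.4% to 76.5% in KD, against 68.1% to 70.2% in NTC. For Grb2, transcripts with the full coding sequence held 98.7% ± 1.3 of the counts in OE, 97.9% ± 1.1 in KD and 99.0% ± 1.2 in NTC. For Qpctl, a transcript with a retained intron held 3.04% ± 2.3 in OE, 2.22% ± 1.5 in KD and 2.25% ± 3.1 in NTC (SD, n = 3 each).

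**Figure D3:**
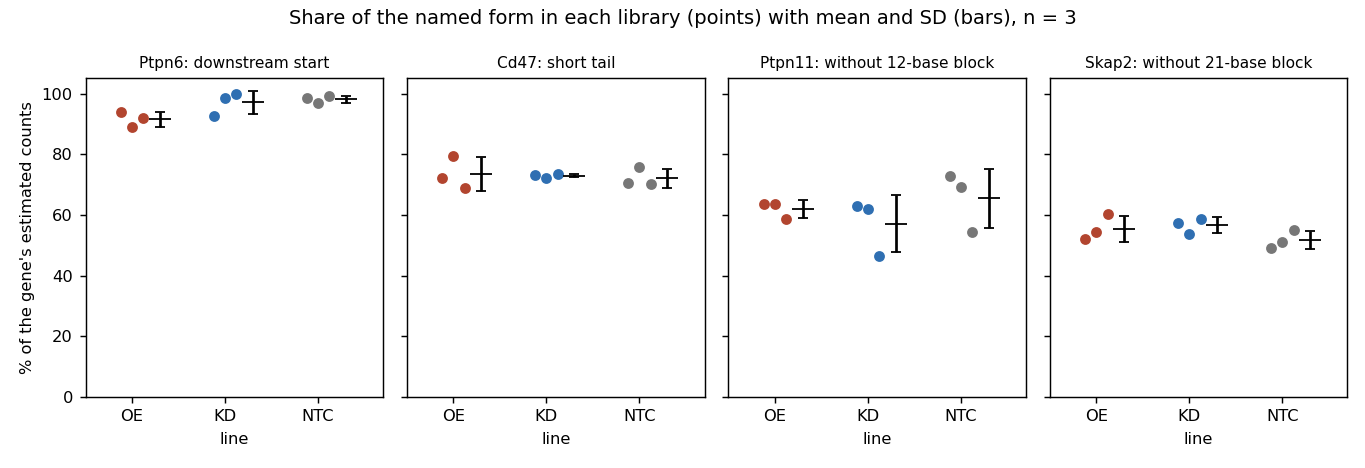
Share of a gene's estimated counts (y axes, percent) held by the named form of Ptpn6, Cd47, Ptpn11 and Skap2 in the OE, KD and NTC lines (x axes), with 1 point per library and bars for the mean and SD of 3 libraries. The downstream-start form of Ptpn6 lies at 88.9% to 93.8% of the counts in OE and 96.9% to 99.1% in NTC.

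Levels of different genes were compared per length, in TPM. Over the 9 libraries the order of mean TPM was Skap2 at 85.8, Grb2 at 65.2, Ptpn11 at 57.6, Cd47 at 28.0, Ptpn6 at 13.1, Qpctl at 7.54, Thbs1 at 5.26 and Ptk2b at 2.88. Skap2 and Grb2 overlapped over the libraries (74.5 to 112 and 52.3 to 80.1 TPM), as did Grb2 and Ptpn11 (54.2 to 70.9 TPM). Cd47, at 25.2 to 31.5 TPM, was separate from Ptpn11 above it and from Ptpn6 below it, at 8.70 to 16.2 TPM. The receptor-side genes Skap2, Grb2 and Ptpn11 were thus each more abundant per length than the ligand Cd47 in every library. In NTC, Cd47 stood at percentile 60.9 of the tested genes by TPM and Ptk2b at percentile 15.3.

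The ranges of Qpctl (5.47 to 8.78 TPM) touched those of Ptpn6 and Thbs1. Thbs1 had the highest ratio of highest to lowest library of the 8, 3.06 (2.94 to 9.01 TPM), and its place in the order changed with the line. It stood at 7.51, 9.01 and 8.54 TPM in OE, beside Qpctl at 8.78, 6.84 and 6.91 TPM in the same libraries. In NTC it stood at 3.02, 3.10 and 2.94 TPM, below Qpctl at 5.47, 7.39 and 7.20 TPM. Grb2 varied from 52.3 to 80.1 TPM but only from 84.5 to 96.2 CPM, and a Grb2 transcript of 369 bases that took 0 to 37.1 counts per library held 12.1% ± 11 of the Grb2 TPM in OE, 29.8% ± 5.3 in KD and 11.9% ± 21 in NTC (SD, n = 3 each).

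**Figure D4:**
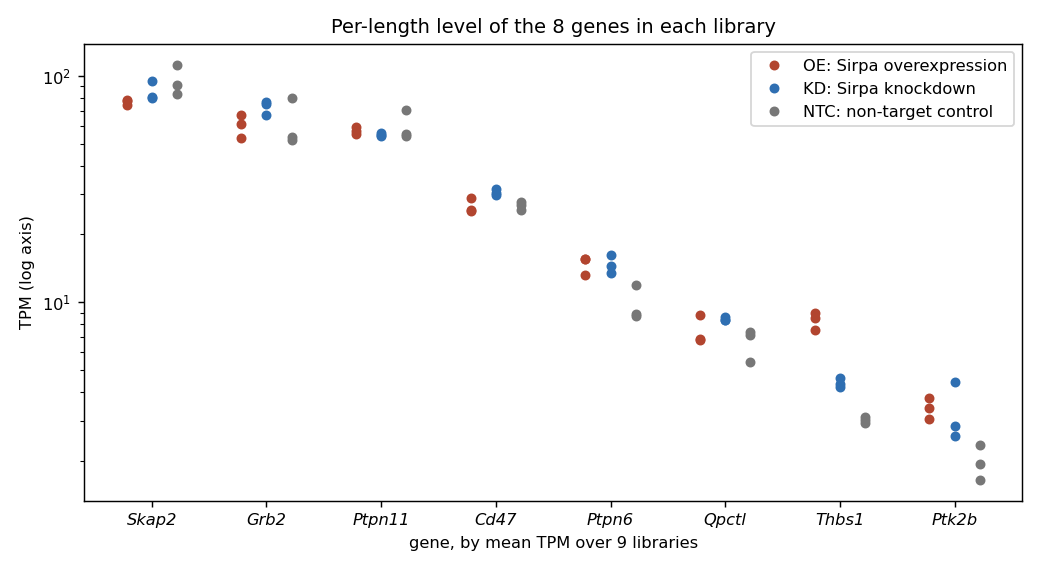
TPM (y axis, log scale) of the 8 genes in each library (points), ordered by mean TPM over the 9 libraries (x axis), with OE, KD and NTC side by side. Skap2, Grb2 and Ptpn11 lie above 52 TPM in every library, and Thbs1 runs from 2.94 TPM in NTC to 9.01 TPM in OE.

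Another 40 genes of the pathway (further ligands, enzymes, kinases, adaptors, integrins and CD47 partners) were read from the same fit, of which 28 were tested. The other 12 were too low, and 8 of these had 0 counts in all 9 libraries, among them the activating relatives Sirpb1a, Sirpb1b and Sirpb1c, the adaptor Skap1, the kinase Fgr and the thrombospondin Thbs4. In OE against NTC, 7 of the 28 rose and 4 fell, which is 39.3% (24.3% of all tested genes called). In KD against NTC, 12 rose and 4 fell, which is 57.1% (35.4% of all tested genes called). In OE against KD, 3 were higher and 10 lower, which is 46.4% (22.1% of all tested genes called). The median log2 fold change of the 28 was 0.04, 0.20 and -0.13 in these comparisons. Without OE library 3, the 11 genes called in OE against NTC became 6.

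In OE, the largest rises among these genes were in Itgb3, the beta3 integrin subunit, at 22.4 ± 2.4 against 14.9 ± 0.89 CPM in NTC (log2 fold change 0.59 ± 0.11 SE, adjusted p = 0.000679), and in the thrombospondin Thbs3, at 31.3 ± 2.2 against 22.5 ± 1.5 CPM (0.47 ± 0.11 SE on the log2 scale, adjusted p = 0.00357), with n = 3 each and p from edgeR. The adaptor Shc1 (0.29 ± 0.05 SE) and the kinase Src (0.21 ± 0.06 SE) followed on the log2 scale. The largest falls were in Fyn, a Src family kinase, at 72.6 ± 2.5 against 91.1 ± 2.5 CPM (-0.33 ± 0.06 SE on the log2 scale, adjusted p = 0.000805 in edgeR), in Sos2 (-0.32 ± 0.06 SE), in the integrin subunit Itgb1 (-0.22 ± 0.04 SE) and in Gnai2, a Gi protein subunit (-0.13 ± 0.04 SE). The calls of Shc1, Src, Sos2 and Gnai2 in OE were lost with a length offset (adjusted p = 0.132, 0.36, 0.161 and 0.115 in edgeR) and on log2(TPM + 1). Those of Src and Gnai2 were also lost when single libraries were left out: without NTC library 1 (adjusted p = 0.0535 and 0.172 in edgeR) or OE library 1 or 3, without NTC library 3 for Src (adjusted p = 0.0582), and without NTC library 2 or OE library 2 for Gnai2 (adjusted p = 0.16 and 0.0733). In KD, Gnai2 was instead higher than in NTC (0.14 ± 0.04 SE, adjusted p = 0.0213 in edgeR), a call kept in 15 of the 19 alternatives. Its difference between OE and KD (-0.27 ± 0.04 SE, adjusted p = 0.000364 in edgeR) stayed called in all 19.

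In KD, the largest rises were in Qpct, the secreted paralogue of Qpctl, at 8.17 ± 1.1 against 4.83 ± 1.1 CPM in NTC (log2 fold change 0.75 ± 0.23 SE, adjusted p = 0.0183), in Lrp1, an endocytic receptor of thrombospondin and calreticulin, at 95.9 ± 7.4 against 58.0 ± 3.5 CPM (0.72 ± 0.08 SE on the log2 scale, adjusted p = 2.78e-06), in Itgb3 at 23.9 ± 1.1 against 14.9 ± 0.89 CPM (0.68 ± 0.11 SE, adjusted p = 9.92e-05) and in the integrin subunit Itga4 at 125 ± 9.6 against 81.0 ± 2.2 CPM (0.63 ± 0.07 SE, adjusted p = 1.5e-06), with n = 3 each and p from edgeR. The largest falls were in Fyn (-0.53 ± 0.06 SE), in the alphav integrin subunit Itgav, at 98.4 ± 5.3 against 142 ± 8.6 CPM (-0.53 ± 0.06 SE, adjusted p = 1.62e-06 by edgeR), in Itgb1 (-0.27 ± 0.04 SE) and in Csk, the kinase that restrains Src family kinases (-0.21 ± 0.05 SE), all on the log2 scale. With a length offset the value of Csk in KD was 0.02 (adjusted p = 0.893), so its sign depended on the scale. The KD call of Qpct was lost with that offset (adjusted p = 0.0598) and without NTC library 1, NTC library 2 or KD library 3 (adjusted p = 0.052, 0.0787 and 0.0664 in edgeR).

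Itgb3 rose and Fyn and Itgb1 fell in both perturbed lines. Fyn was also higher in OE than in KD, at 72.6 ± 2.5 against 63.2 ± 3.0 CPM (log2 fold change 0.20 ± 0.06 SE, adjusted p = 0.0265 by edgeR). This call was lost in 5 of the 19 alternatives, among them a length offset (adjusted p = 0.23 in edgeR). Lrp1, Itga4 and Itgav differed more between OE and KD. In OE against KD, Lrp1 had 59.6 ± 5.6 against 95.9 ± 7.4 CPM (log2 fold change -0.69 ± 0.08 SE, adjusted p = 1.02e-05), Itga4 82.5 ± 5.0 against 125 ± 9.6 CPM (-0.60 ± 0.07 SE, adjusted p = 5.17e-06) and Itgav 160 ± 2.5 against 98.4 ± 5.3 CPM (0.70 ± 0.06 SE, adjusted p = 1.44e-07), with n = 3 each and p from edgeR. The Lrp1 difference kept its size but not its call with a length offset (adjusted p = 0.0751) and on log2(TPM + 1) (adjusted p = 0.107). Qpct was lower in OE than in KD (-0.75 ± 0.23 SE on the log2 scale, adjusted p = 0.029 by edgeR). This call was lost with that offset, with a replicate block and on log2(TPM + 1) (adjusted p = 0.0645 in limma). It was also lost without KD library 1, KD library 3 or OE library 3 (adjusted p = 0.0614, 0.0951 and 0.114 in edgeR).

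**Figure D5:**
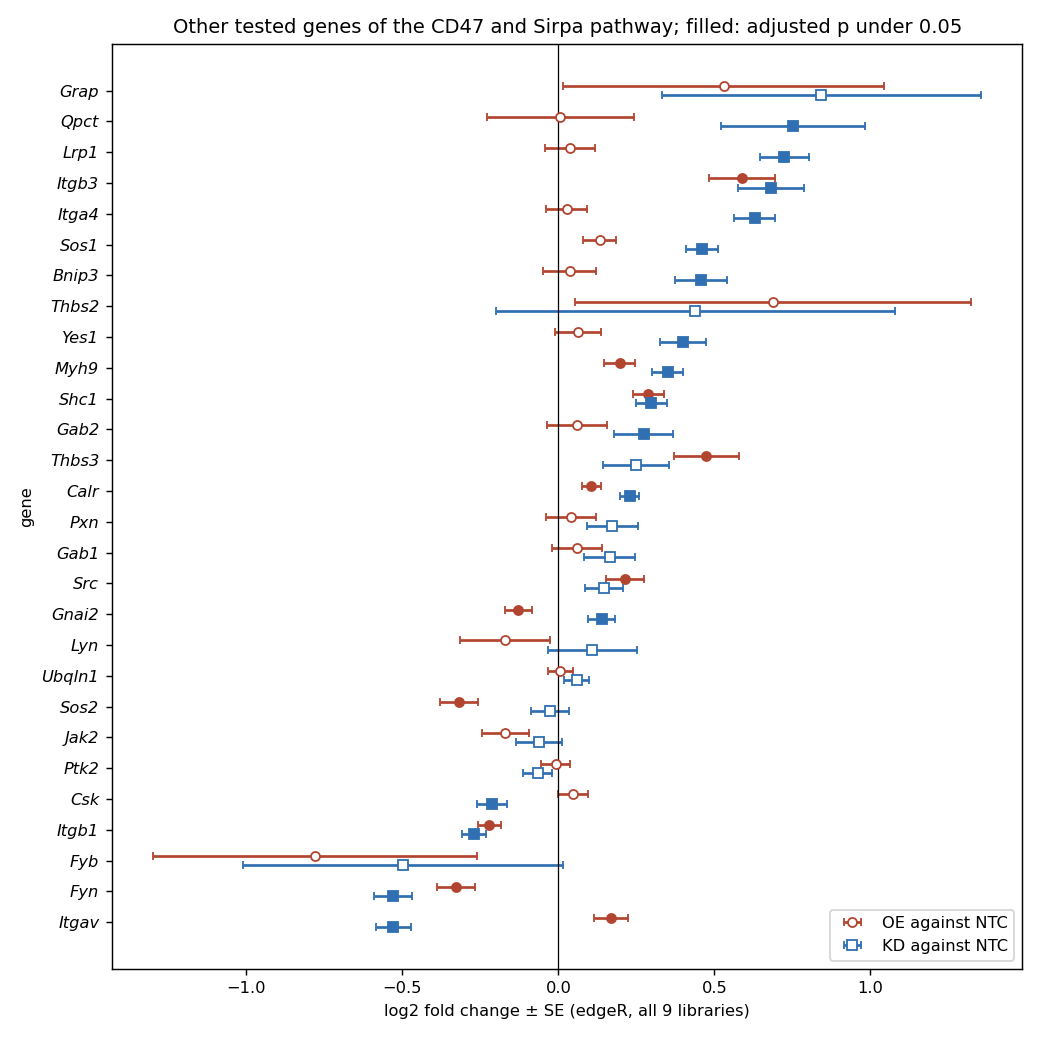
Log2 fold changes (x axis) of the 28 other tested pathway genes (y axis) in OE against NTC and KD against NTC, with bars for the SE from the edgeR fit and filled symbols for an adjusted p under 0.05. Itgb3 is filled to the right and Fyn and Itgb1 to the left in both comparisons, and Itgav lies at 0.17 in OE and at -0.53 in KD.

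Of the paralogues of the 8 genes, Thbs2 had 1.22 ± 0.55 CPM in OE, 1.02 ± 0.25 in KD and 0.752 ± 0.58 in NTC, and Grap, a relative of Grb2, had 1.33 ± 0.23, 1.65 ± 0.099 and 0.908 ± 0.51 CPM (SD, n = 3 each). Neither was called in any comparison. Ptk2, the focal adhesion kinase related to PYK2, had 130 ± 1.9 CPM in OE, 125 ± 0.86 in KD and 131 ± 5.2 in NTC and was not called. Per length, Ptk2 stood at 54.6 ± 3.6 TPM in OE, 53.8 ± 2.3 TPM in KD and 51.9 ± 4.6 TPM in NTC, above Ptk2b at 3.40 ± 0.36 TPM in OE, 3.28 ± 1.0 TPM in KD and 1.97 ± 0.36 TPM in NTC (SD, n = 3 each). Skap1 had no counts in any library.

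For the 4 genes called in at least 1 comparison, the genes with the most similar profile over the 9 libraries were listed by Pearson correlation of log2 CPM among 9801 genes, as a description without a p, since the libraries of a line share their cells. Thbs1 was most like Rasgrp3 (r = 0.991), Oxct1 (r = 0.987) and Rrm2 (r = 0.986). Ptpn6 was most like Ltbr (r = 0.969), Nop14 (r = 0.968) and Ptp4a3 (r = 0.965). Skap2 was most like Pcdhb16 (r = 0.960), Ergic3 (r = 0.959) and Mcts2 (r = 0.957), and Ptk2b was most like Rfwd3 (r = 0.948), Tec (r = 0.946) and Gart (r = 0.943). By Spearman's rank correlation, 1 of the 3 genes stayed among the 3 most similar for Thbs1 and for Skap2, and 0 for Ptpn6 and for Ptk2b.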

How the data were processed

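The 9 libraries were made from total RNA with a non-directional mRNA kit and read as paired ends of 150 bases, per the labels' protocols. For each library the authors deposited a table of all transcripts, which per the file headers gives estimated counts, TPM and effective length (bases). The build was mm39 and the software included Salmon 1.4.0, DESeq2 1.34.0 and MultiQC 1.11, as listed in the submitters' processing notes, while the annotation release is not given in the sources used here. As a quantifier, Salmon shares fragments among similar transcripts by estimate, so a form is less certain than a gene total. The transcript forms of 1 of the 8 genes are not reported here.

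Transcripts were matched to genes by identifier with GENCODE M21 (137161 of 140789, 97.42%; unmatched ones held 0.554% to 0.654% of the counts and were left out). Estimated counts as deposited were added up by gene, rounded and tested with edgeR 4.0.16 (R 4.3.3: filterByExpr, TMM, quasi-likelihood) on all 9 libraries with line as the term. Of 51717 genes, 13064 were tested, with a Benjamini-Hochberg adjusted p under 0.05 and no fold minimum. The SE comes from the log2 fold change and its F statistic. Chi-square per degree of freedom between repeats was 4.77 to 10.55, where sampling noise gives 1, so no library was a copy.

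The 8 genes, the pathway list and the marker lists were chosen with earlier results of these data known. Named were the 8 genes and Sirpa; per comparison with NTC, the 4 called pathway genes with the largest change in each direction at a mean of at least 1 CPM; 5 paralogues; and the 3 most similar genes (mean of at least 5 CPM) of each called gene. Alternatives were DESeq2 1.42.0, its size factors, limma 3.58.1 (voom, and log2(TPM + 1)), other filters, a replicate block, fewer libraries and a transcript length offset.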

Additional observations from a re-analysis of the deposited data

How the results depend on the processing

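Counts of calls moved by more than 1.5 times under the settings that use transcript length. With a length offset in edgeR, 2794 genes were called in KD against NTC (4619 without it), 1575 in OE against NTC (3172) and 1423 in OE against KD (2887). With limma on log2(TPM + 1) these counts were 2729, 1461 and 1162. Of the 8 genes, 2 were called in KD under either setting and 2 in OE on log2(TPM + 1), against 4 in each. Of the whole pathway list of 49 genes, the 16 called in OE against NTC became 9 and 8, and the 15 called in OE against KD became 8 and 7, under the offset and log2(TPM + 1) in that order. Without the 8 genes and Sirpa, 11 became 5 and 5, and 13 became 6 and 5. The cause was not tested. Csk in KD turned positive, at 0.024 with the offset and 0.085 on log2(TPM + 1), uncalled in both.

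Leaving out 1 library at a time gave 3885 to 4555 genes called in KD against NTC, 2440 to 3297 in OE against NTC and 2241 to 2867 in OE against KD. For the 8 genes the counts were 3 to 4, 3 to 4 and 1 throughout, for the pathway list 18 to 21, 10 to 16 and 13 to 15, and for its other genes 14 to 16, 6 to 11 and 11 to 13. The lowest values of the pathway list in OE against NTC came without OE library 3.

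No clear pairing by replicate number was seen. Deviations of same-numbered libraries correlated at -0.093 to 0.127, with 1 of 9 pairs over 0.1, and those of differently numbered libraries at -0.131 to 0.093. A weak pairing could go unseen in such correlations. With a replicate block, 4423, 2957 and 2712 genes were called in the same order of comparisons, 4, 4 and 1 of the 8 genes and 21, 15 and 13 of the pathway list. The block ended the calls of Gnai2 in OE (adjusted p = 0.0575) and of Qpct and Myh9 in OE against KD (adjusted p = 0.0527 and 0.0585).

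As shares of TPM, the short-tailed Cd47 form held 50.4% in OE, 52.8% in KD and 51.5% in NTC, and the Skap2 form with the 21-base block 24.9%, 23.8% and 26.5%. The limits are 3 repeats of 1 line per condition, few counts for Ptk2b and for minor forms, and non-directional reads for Qpctl.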
